A study of Mus musculus with 4 samples.

Results

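The thymic tuft cell program was followed across the series through 10 genes: the regulator Pou2f3, the taste signalling genes Gnat3, Gnb3, Plcb2 and Trpm5, the structural and kinase genes Avil and Dclk1, and the effector genes Il25, Ltc4s and Alox5ap. They were matched by gene symbol in a table of 54532 genes, and all 10 were found, each as a single protein-coding gene. Tuft cells are rare chemosensory epithelial cells that signal through the G protein cascade of taste cells and answer with the cytokine IL-25 and with lipid mediators. In the thymus they belong to the medulla, among the mimetic epithelial cells that take on features of peripheral tissues, and they depend on the transcription factor Pou2f3.

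RNA was sequenced from thymic epithelial cells of C57BL/6 mice, with 4 libraries and 1 library per group. The groups were Ly51− UEA1+ cells (mTEC, medullary) from littermate controls labelled WT, the same population from SCD1 knockout mice, Ly51+ UEA1− cells (cTEC, cortical) from controls, and that cortical population from knockout mice. SCD1 is a stearoyl-CoA desaturase, which makes oleic acid from stearic acid. The sources used here do not give the animals' age or sex, the number of mice per library, the knockout allele or whether SCD1 was absent from all cells. Tuft cells were not sorted, so a level here is that of a bulk population, and fewer tuft cells cannot be told apart from less tuft cell RNA per cell.

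There are no replicates to check a difference against. The 95% intervals cover counting error alone, so each comparison is between libraries and not between conditions. Library totals lay between 15740383 and 18151725 reads assigned to genes. Levels are in CPM, the field's unit of reads scaled to library size, where a floor of 3 reads stands between 0.171 and 0.196 CPM. The targeted gene Scd1 had 1310 reads in control mTEC and 278 in knockout mTEC, and 325 and 73 in the cTEC pair, 4.85-fold and 5.08-fold lower. Of 9 medullary markers, 8 were at least 2-fold higher in mTEC than in cTEC in each genotype, and of 10 cortical markers 9 were at least 2-fold lower.

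All 10 tuft cell genes were detected in all 4 libraries, with between 16 and 994 reads per gene. Together they had 2772 reads in control mTEC (163 CPM, 157 to 169) and 3317 in its knockout counterpart (189 CPM, 182 to 195), and 1243 in control cTEC (81.3 CPM, 76.9 to 86.0) and 1365 in its counterpart (77.9 CPM, 73.8 to 82.1). The summed level was thus highest in knockout mTEC, and the cTEC libraries, whose intervals overlap, were lowest. Dclk1 alone supplied between 30.0% and 34.1% of these reads, and Il25 between 0.685% and 1.98%. The genotypes differed by a log2 ratio of 0.21 (0.14 to 0.29) for the sum in mTEC and of −0.06 (−0.17 to 0.05) in cTEC.

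**Figure D1:**
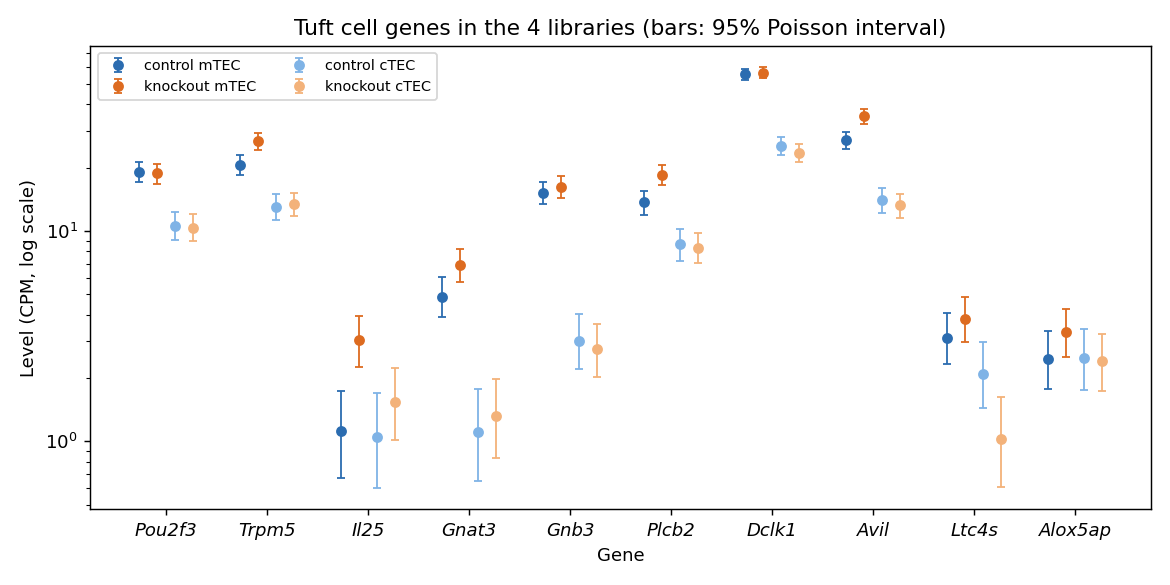
Level of each of the 10 tuft cell genes (CPM, logarithmic axis) in the 4 libraries, coloured by genotype and population; bars are exact 95% Poisson intervals. Dclk1 is highest in all 4 libraries, and Gnb3 and Gnat3 show the widest gap between mTEC and cTEC.

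Pou2f3 (ENSMUSG00000032015, mm10 chromosome 9, 43123939 to 43210369, minus strand) encodes the POU domain factor that specifies tuft cells. It had 325 reads in control and 330 in knockout mTEC, and 162 in control and 182 in knockout cTEC. The genotypes lay close together in both populations, with log2 ratios of −0.02 (−0.25 to 0.20) in mTEC and −0.03 (−0.34 to 0.28) in cTEC. The mTEC libraries stood above the cTEC libraries, by log2 ratios of 0.85 (0.57 to 1.13) in controls and 0.85 (0.59 to 1.12) in knockouts. Of the 10 genes, the master regulator was therefore among the closest to equality between genotypes.

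The taste cascade begins with the G protein gustducin. Gnat3 (chromosome 5, 17962549 to 18019834, plus strand), its alpha subunit, had 83 reads in control and 121 in knockout mTEC, and 17 in control and 23 in knockout cTEC. Gnb3 (chromosome 6, 124834240 to 124840275, minus strand), the beta subunit that pairs with it in taste cells, had 259 and 284 reads in mTEC and 46 and 48 in cTEC. Both were several-fold lower in the cTEC libraries. In controls the mTEC library exceeded the cTEC library 4.28-fold for Gnat3 and 5.0-fold for Gnb3, and in knockouts 5.16-fold and 5.85-fold. Between genotypes in mTEC, the log2 ratio was 0.50 (0.08 to 0.92) for Gnat3 and 0.09 (−0.16 to 0.34) for Gnb3, so that the interval of the alpha subunit excluded equality and that of the beta subunit did not.

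Downstream of gustducin, phospholipase C beta 2 makes inositol trisphosphate, and the calcium that this releases opens the cation channel TRPM5. Plcb2 (chromosome 2, 118707517 to 118728438, minus strand) had 233 reads in control and 325 in knockout mTEC, and 132 in control and 146 in knockout cTEC. Trpm5 (chromosome 7, 143069153 to 143094642, minus strand) had 352, 469, 199 and 235 in the same order. For both genes knockout mTEC stood above the other 3 libraries, with intervals of the level that did not overlap those of the others. The genotype log2 ratio in mTEC was 0.44 (0.19 to 0.69) for Plcb2 and 0.37 (0.17 to 0.57) for Trpm5. In cTEC it was −0.05 (−0.40 to 0.30) and 0.04 (−0.24 to 0.32).

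Avil encodes advillin, an actin-bundling protein of the villin family that marks the apical tuft of these cells. Avil (chromosome 10, 127000709 to 127020994, plus strand) had 460 reads in control and 616 in knockout mTEC, and 214 in control and 232 in knockout cTEC, and its genotype log2 ratio was 0.38 (0.20 to 0.55) in mTEC and −0.08 (−0.36 to 0.19) in cTEC. Knockout mTEC was again the highest library. Dclk1 (chromosome 3, 55242364 to 55539068, plus strand), a doublecortin-like kinase used as a tuft cell marker, had 946, 994, 387 and 412 reads. It had more reads than any other of the 10 genes in every library, and yet its genotype ratios were near 0, at 0.03 (−0.10 to 0.16) in mTEC and −0.11 (−0.31 to 0.10) in cTEC. In both genotypes the mTEC library exceeded the cTEC library for Dclk1, 2.19-fold in controls and 2.41-fold in knockouts.

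The 250 bases before the RefSeq start site are shown for Avil, Trpm5 and Plcb2, picked for their close mTEC genotype ratios after these were seen. These ratios do not set the 3 genes apart. Alox5ap, at 0.42, lay among them without a matched window, and Gnat3 was at 0.50. The build is GRCm38.p6, also called mm10. Avil is on the plus strand and Trpm5 and Plcb2 on the minus strand, written in the direction of transcription. Capitals mark the 7-base core ATGCAAA of the octamer bound by POU factors, on either strand.
Avil, chr10:127000459-127000708: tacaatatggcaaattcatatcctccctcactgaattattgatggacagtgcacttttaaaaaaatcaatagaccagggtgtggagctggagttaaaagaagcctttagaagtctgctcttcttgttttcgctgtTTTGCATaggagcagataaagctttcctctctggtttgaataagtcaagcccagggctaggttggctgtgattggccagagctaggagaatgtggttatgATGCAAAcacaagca
Trpm5, chr7:143094643-143094892: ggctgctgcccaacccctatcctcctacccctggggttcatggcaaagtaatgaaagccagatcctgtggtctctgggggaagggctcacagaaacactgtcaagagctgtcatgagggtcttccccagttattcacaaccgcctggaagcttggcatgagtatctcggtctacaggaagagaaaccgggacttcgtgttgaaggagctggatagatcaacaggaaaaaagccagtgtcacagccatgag
Plcb2, chr2:118728439-118728688: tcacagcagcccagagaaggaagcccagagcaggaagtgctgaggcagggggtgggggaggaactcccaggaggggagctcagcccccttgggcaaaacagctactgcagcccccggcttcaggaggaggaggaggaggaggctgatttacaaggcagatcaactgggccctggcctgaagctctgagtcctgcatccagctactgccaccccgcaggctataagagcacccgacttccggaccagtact

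RefSeq windows were matched for 6 of the 10 genes (Plcb2, Dclk1 with 2 windows, Gnat3, Trpm5, Avil and Ltc4s), and not for Pou2f3, Il25, Gnb3 and Alox5ap. The full octamer ATGCAAAT, searched on both strands, was in none of these 7 windows and in 1.60% of all 32851 windows of this length. Its core ATGCAAA, which was added to the search after the Avil window had been read and which every full octamer contains, was in the Avil window only, at 115 bases before the start site on the opposite strand and at 15 bases before it on the gene's strand; 4.13% of all windows hold it. The TATA motif TATAAA and the GC box GGGCGG were in none of the 7 windows, against 12.4% and 32.7% of all windows. The CCAAT box was in 3 of them, those of Dclk1, Gnat3 and Avil, against 33.9%. These letters describe the windows and do not show that a factor binds there.

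Il25 (chromosome 14, 54932695 to 54935837, plus strand) encodes the cytokine by which tuft cells act on lymphocytes. It had 19 reads in control and 53 in knockout mTEC, and 16 in control and 27 in knockout cTEC, or 1.11 (0.671 to 1.74), 3.02 (2.26 to 3.95), 1.05 (0.598 to 1.70) and 1.54 (1.01 to 2.24) CPM. Knockout mTEC was the highest library, and its interval overlapped none of the others. The genotype log2 ratio was 1.41 (0.66 to 2.27) in mTEC and 0.54 (−0.39 to 1.55) in cTEC. In controls Il25 was nearly equal between populations (0.08, −0.95 to 1.15), whereas in knockouts the mTEC library stood above the cTEC library (0.96, 0.28 to 1.70).

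The remaining effector genes serve leukotriene synthesis. Alox5ap (chromosome 5, 149264767 to 149288153, plus strand) encodes the membrane protein FLAP, which presents arachidonic acid to 5-lipoxygenase. It had 42 reads in control and 58 in knockout mTEC, and 38 in control and 42 in knockout cTEC, and all 4 intervals overlapped. Alox5ap was the only gene of the 10 whose mTEC and cTEC levels could not be separated by counting error in either genotype, at −0.01 (−0.68 to 0.66) in controls, where total-read scaling turned the sign to 0.08, and 0.46 (−0.14 to 1.07) in knockouts.

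Ltc4s (chromosome 11, 50236461 to 50238616, minus strand) encodes leukotriene C4 synthase, which joins glutathione to leukotriene A4. It had 53 reads in control and 67 in knockout mTEC, and 32 in control and 18 in knockout cTEC. Its genotype ratio was 0.29 (−0.25 to 0.84) in mTEC and −1.01 (−1.95 to −0.15) in cTEC, so the knockout library was the higher of the mTEC pair and the lower of the cTEC pair. Of its annotated exon bases, 26.4% overlap Gm26542 on the opposite strand, which had 32, 27, 10 and 14 reads. The sources used here do not give the strand setting of the counting, so reads in that stretch cannot be told apart.

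In mTEC, the knockout library showed higher levels than the control for 9 of the 10 genes, Pou2f3 being the exception; 51.9% of the 16466 genes tested lay above 0. By a size rule (at least 50 reads over the pair, at least 2-fold, and a counting interval that excludes equality), 1 of the 10 was called, Il25 on the higher side, against 0.504% of the 16466 genes tested called higher. None was called lower, against 0.431%. All 10 had the 50 reads. The counting interval lay above 0 for 5 of them (Trpm5, Il25, Gnat3, Plcb2 and Avil), against 11.6% of the genes tested, and below 0 for none, against 10.2%. The median log2 ratio of the 10 was 0.37, beside 0.01 over all genes tested. Of all tested genes, 99.9% had a lower ratio than Il25, 93.0% a lower ratio than Trpm5 and 42.4% a lower ratio than Pou2f3. These shares and those of called genes were not matched for depth, and Il25 had only 72 reads over the pair.

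**Figure D2:**
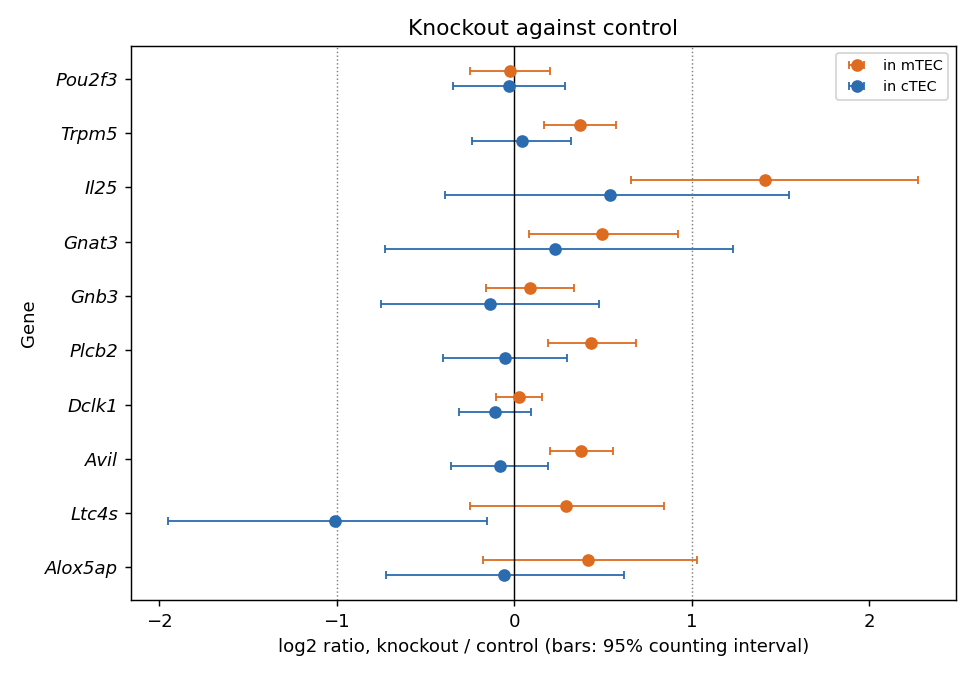
Log2 ratio of knockout over control for each tuft cell gene in mTEC (orange) and in cTEC (blue), with 95% counting intervals; dotted lines mark a 2-fold difference. In mTEC 5 intervals lie above 0, with Il25 at 1.41, and in cTEC only the interval of Ltc4s, at −1.01, excludes 0.

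In cTEC, 8 of the 10 genes had 50 reads over the pair, while Il25 with 43 and Gnat3 with 40 did not. Ltc4s, with exactly 50, was called lower at 2.01-fold, against 0.706% of the 14445 genes tested called lower, and it had no margin on either limit: with a prior count of 2 reads its ratio was −0.96 and the call was lost. No member was called higher, against 0.492% of genes. Over all 10 the median log2 ratio was −0.05, beside 0.01 over the genes tested, with 3 of them above 0 (Trpm5, Il25 and Gnat3), against 52.3% of the genes tested. For 9 of the 10 the counting interval held 0; intervals above 0 were found for 16.3% of the genes tested and below 0 for 14.5%.

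**Figure D3:**
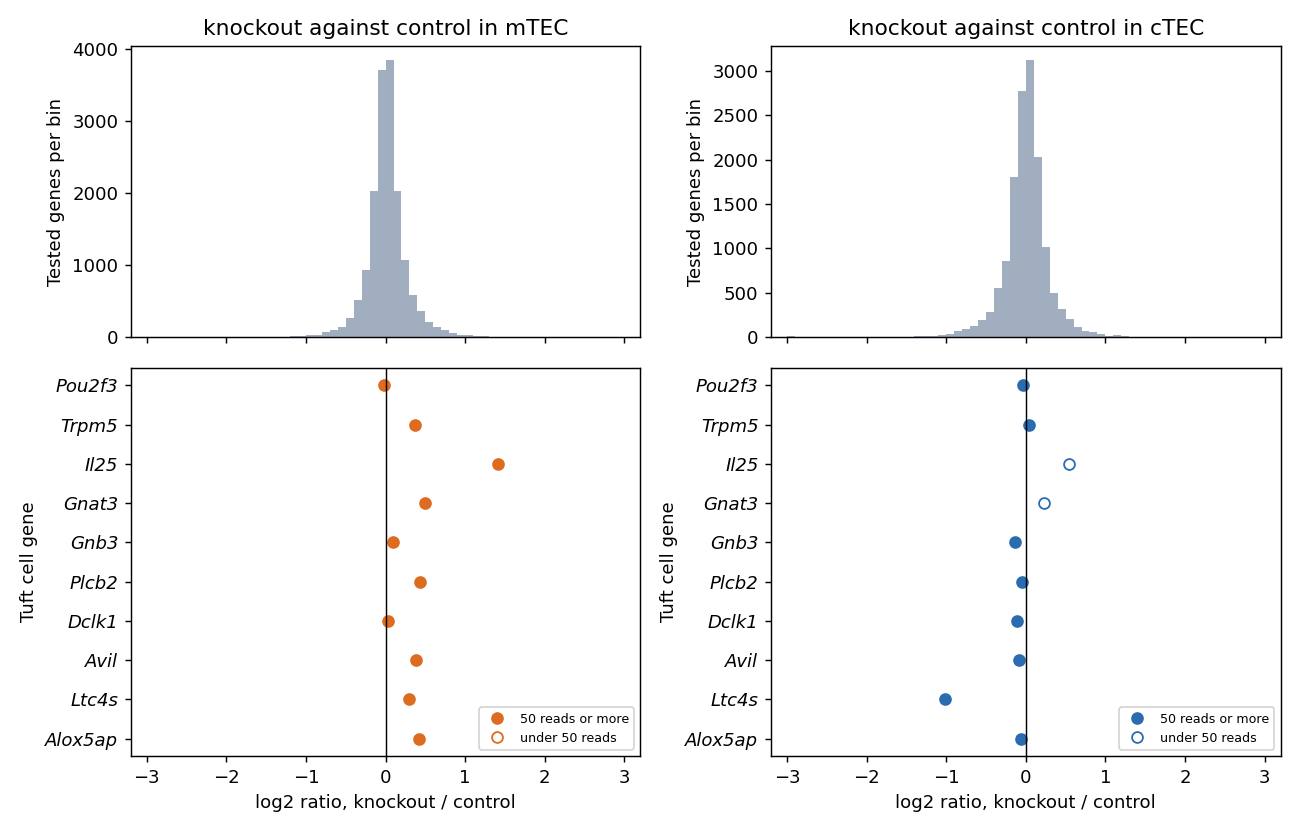
Upper panels, number of tested genes (50 or more reads over the pair) per 0.1-wide bin of the knockout over control log2 ratio in mTEC and cTEC, with ratios beyond 3 placed in the end bins; lower panels, the 10 tuft cell genes on the same axis, open where the pair had under 50 reads. In mTEC most of the 10 lie right of the bulk of genes and Il25 farthest, and in cTEC they lie around 0 except Ltc4s, Il25 and Gnat3.

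The genotype ratio was larger in mTEC than in cTEC for all 10 genes. The counting interval of this difference (log2, mTEC minus cTEC) lay above 0 for 3 of them: Ltc4s at 1.30 (0.33 to 2.27), Plcb2 at 0.49 (0.07 to 0.90) and Avil at 0.46 (0.14 to 0.78). Over the 13953 genes with 50 reads in both pairs, 12.2% had such an interval and 48.5% a difference above 0. Il25, with few reads in cTEC, had a difference of 0.87 with a wide interval (−0.28 to 2.03). Pou2f3 had the smallest, at 0.01 (−0.37 to 0.38). Since each population has 1 library per genotype, the difference has no test.

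Between populations, tuft cell genes stood higher in mTEC, unevenly. In controls 3 of the 10 were called higher (Gnat3, Gnb3 and Dclk1), against 19.0% of 15747 genes tested, and in knockouts 6 (these 3 with Plcb2, Avil and Ltc4s), against 19.8% of 15962. None was called lower, against 8.53% and 8.96%. Il25, with 35 reads over the control pair, could not be called there. The median of the 10 log2 ratios was 0.75 in controls and 1.21 in knockouts, beside −0.06 and −0.08 over all tested genes. These comparisons use the same 4 libraries as the genotype comparisons, so the larger count in knockouts is no separate observation.

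**Figure D4:**
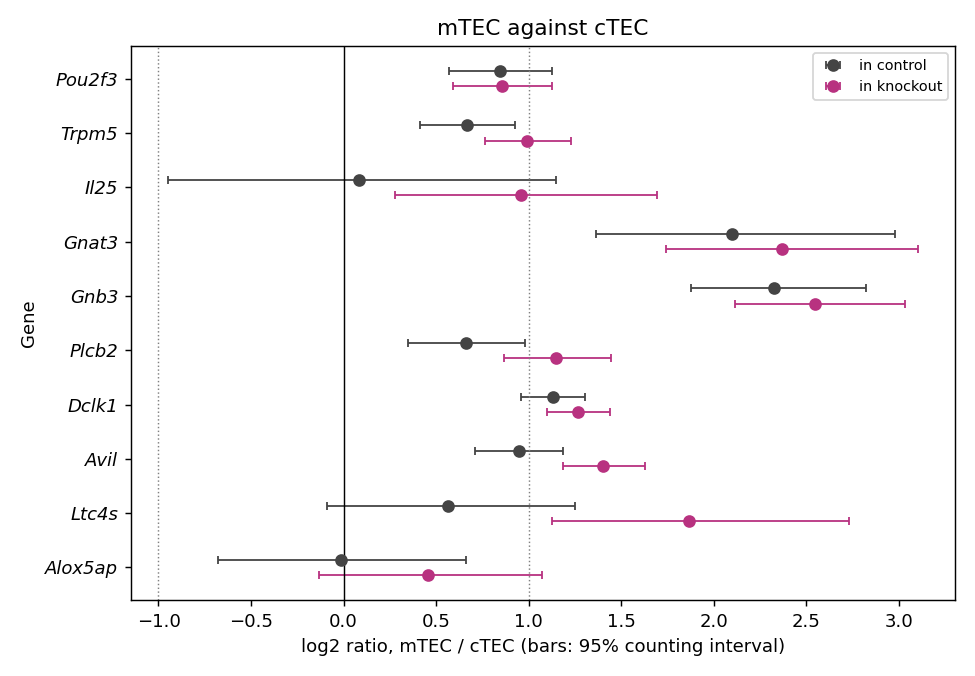
Log2 ratio of mTEC over cTEC for each tuft cell gene in control (grey) and knockout (purple) libraries, with 95% counting intervals; dotted lines mark a 2-fold difference. Gnat3 and Gnb3 lie above 2 in both genotypes, while Alox5ap lies nearest to 0 in controls and is lowest in knockouts.

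The median log2 ratio of the 9 mTEC markers was 2.71 in controls and 3.14 in knockouts, and that of 6 measured neuroendocrine genes 3.10 and 3.04, although Chga, the most abundant of these, was at −0.01 in controls (0.08 with total-read scaling). Single medullary markers spread widely: in controls Krt5 was at 0.47, Krt14 at 1.34 and Cd86 at 1.76, all below Gnat3 and Gnb3. They were the lowest of the 9. Fezf2 at 2.71, Tnfrsf11a at 2.82, Cd80 at 3.10, Spib at 3.93 and Aire lay above both Gnat3 and Gnb3. Cd40 at 2.26 lay above Gnat3 only. Apart from Aire, Chga and these markers are named after their values were seen. Aire, the regulator of tissue-restricted antigens, which was picked for its known role, had 21598 reads in control mTEC and 575 in control cTEC, a log2 ratio of 5.07. Whether tuft cells or their RNA were present in the Ly51+ UEA1− sort was not tested.

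Per kilobase of the deposited gene length, which permits comparison between genes, Avil had the highest value of the 10 in each library, at 7.94 CPM per kilobase (7.23 to 8.70) in control and 10.3 (9.52 to 11.2) in knockout mTEC, and at 4.12 (3.59 to 4.71) in control and 3.89 (3.41 to 4.43) in knockout cTEC. In control mTEC, Pou2f3 (6.18) and Gnb3 (5.77) followed without separation from each other, then Dclk1 (3.63), Gnat3 (3.58), Trpm5 (3.23), Ltc4s (3.07), Plcb2 (2.07), Alox5ap (1.74) and Il25 (1.05). The intervals of neighbours in this order overlapped for 7 of 9 pairs; Avil was clear of Pou2f3, and Gnb3 of Dclk1. In cTEC the interval of Avil overlapped that of Pou2f3, at 3.43 in the control and 3.36 in the knockout. The order depends on the length used. Per kilobase of the longest GENCODE M21 transcript, a setting added after the data were seen, control mTEC had Dclk1 at 6.97 (6.53 to 7.43) and Trpm5 at 5.01, and Avil at 8.90 (8.10 to 9.75) overlapped Gnb3 at 8.23 (7.26 to 9.30). With the deposited length again, Il25 was the eighth in knockout mTEC at 2.84 (2.12 to 3.71), beside Plcb2 at 2.80. On that scale Gnat3 was last in the cTEC libraries, at 0.817 and 0.964. With the deposited length, neighbours overlapped for 8 of 9 pairs in each of the 3 libraries other than control mTEC.

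Relatives of the tuft cell genes were read from a family list of 30 genes, which shares Vil1, Trpm4 and Ptges with the pathway lists. It had 27 with 50 reads in the mTEC pair, of which 1 was called higher, and 21 in the cTEC pair, with none called. Over all genes tested, 0.504% were called higher and 0.431% lower in mTEC, and 0.492% and 0.706% in cTEC. The medians of the list were 0.03 and −0.04. The called gene was Dclk3, a kinase related to Dclk1, with 43 and 105 reads in mTEC (1.23, 0.72 to 1.79) and 1 read in each cTEC library. Among G protein beta subunits, picked from this list like Vil1 after their values were seen, the general subunits Gnb1 and Gnb2 stood per kilobase at 69.3 and 79.5 CPM in control mTEC, far above Gnb3 at 5.77, and their population ratios in controls were −0.02 (0.07 with total-read scaling) and −0.21, against 2.32 for Gnb3. Vil1, which encodes villin, a relative of advillin, was at 6.56 CPM per kilobase in control mTEC, and its mTEC over cTEC ratio in controls was 2.42, against 0.95 for Avil.

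Further genes of the tuft cell pathway were read from lists. Of 34 taste signalling genes, including 22 bitter receptor genes, 8 had 50 reads in the mTEC pair and 4 in the cTEC pair. Only Tas1r1, which encodes a subunit of the umami receptor, was called, with 17 and 36 reads in mTEC (1.02, 0.17 to 1.96). Over all genes tested, 0.504% were called higher and 0.431% lower in mTEC, and 0.492% and 0.706% in cTEC. No bitter receptor gene had 50 reads in either genotype pair; Tas2r108, with 22, 15, 8 and 7 reads and named after they were seen, had the most. The medians over genes with 50 reads were 0.18 in mTEC and −0.03 in cTEC. Gng13, which encodes the gamma subunit of gustducin and is named here after its values were seen, had 85, 97, 18 and 18 reads, a pattern across populations like that of Gnat3 and Gnb3 (2.05 in controls, 2.39 in knockouts).

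No gene of the transcription regulator list was called between genotypes, of 8 measured in mTEC and 6 in cTEC, with medians of −0.02 in both. Over all genes tested, 0.504% were called higher and 0.431% lower in mTEC, and 0.492% and 0.706% in cTEC. At such shares, none called in lists this short does not set them apart from other genes. Sox9, Spib and Runx1, the members with the most reads, had ratios of −0.03, −0.0027 and −0.18 in mTEC, with a sign for Spib that turns with DESeq2 size factors (0.0031). Among 12 measured genes of eicosanoid synthesis none was called in mTEC, nor of 9 in cTEC, and the medians were 0.04 and −0.07; Ggt5, Ptgs2 and Abcc1 had the most reads. Alox5, the 5-lipoxygenase served by FLAP and also named after its values were seen, was at 0.03 (−0.18 to 0.25) in mTEC. Hpgds at 0.40 (0.15 to 0.64) and Ptgs1 at 0.47 (0.10 to 0.85), likewise named after their values were seen, were highest there. Tbxas1, named in the same way, was lowest at −0.55 (−1.31 to 0.17), and 7 of the 12 were above 0. In the type 2 cytokine list, none of 12 genes was called in mTEC and none of 8 in cTEC, with medians of 0.07 and −0.05. The receptor chain genes Il4ra, Il13ra1 and Il17ra, the last a chain of the IL-25 receptor, were at 0.04, −0.03 and −0.04 in mTEC. Il17rb, the gene of the other IL-25 receptor chain, was at 0.41 (−0.01 to 0.84) there, with 83 and 114 reads. It is named after its values were seen, and 7 of the 12 genes were above 0 in mTEC.

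Among 24 genes of the tuft cytoskeleton, adaptors and surface, 20 were above 0 in the mTEC pair, with a median of 0.17, and 16 of 22 in the cTEC pair, with a median of 0.13, against 51.9% and 52.3% of all genes tested. Cd300lf, an inhibitory receptor gene of myeloid and tuft cells, was called higher in mTEC (35 and 79 reads, 1.12, 0.54 to 1.75). Matk, a kinase gene related to Csk, was called higher in cTEC (19 and 45 reads, 1.02, 0.24 to 1.90). Over all genes tested, 0.504% were called higher in mTEC and 0.492% in cTEC. Several genes of this list are also expressed in leukocytes, and Ptprc, the pan-leukocyte gene CD45, had 346 and 433 reads in mTEC and 408 and 626 in cTEC.

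Markers of the sorted populations and of other cell types were measured beside these differences. The 10 cortical markers summed to 1581 CPM in control and 2006 in knockout mTEC, and to 13048 and 16238 in cTEC. Their median log2 ratio between genotypes was 0.22 in mTEC, with 9 of 10 above 0, and 0.32 in cTEC, with 10 of 10. The 9 medullary markers summed to 6955 and 6772 CPM in mTEC, and to 2964 and 2629 in cTEC. Plcb2, Alox5ap and Ltc4s are expressed in myeloid or mast cells as well. In the mTEC pair, 12 of 12 myeloid and dendritic markers were detected and summed to 356 CPM in the control and 399 in the knockout; in the cTEC pair they summed to 116 and 137. The 10 mast cell and basophil markers summed to 90.6 and 88.3 CPM in mTEC and to 11.5 and 8.10 in cTEC, with 1 and 3 of them at 0 in the cTEC libraries. Thymocyte markers summed to 213 and 258 CPM in mTEC and to 301 and 387 in cTEC, and B cell markers to 35.8 and 38.2 in mTEC and 17.5 and 14.7 in cTEC. Endothelial markers stood at 14.9 and 24.2 CPM in mTEC and 16.0 and 25.7 in cTEC, fibroblast markers at 179 and 183, and at 393 and 386, and neuroendocrine markers at 1729 and 1386, and at 1313 and 1247. Of the endothelial markers, Cldn5 was called higher in mTEC (10 and 53 reads, 2.31, 1.37 to 3.50). Cdh5 was called higher in cTEC (17 and 53 reads, 1.41, 0.63 to 2.32). Over all genes tested, 0.504% and 0.492% were called higher. Single genes made up much of some sums. In control and knockout mTEC, Chga alone was at 1265 and 906 CPM. Lyz2 of the myeloid list was at 223 and 256, and Kit of the mast cell list at 60.7 and 57.7. Of 6 neuroendocrine genes with 50 reads in the mTEC pair, 2 were above 0, against 51.9% of all genes tested. With the same minimum, 9 of 10 thymocyte, 8 of 12 myeloid and dendritic, and 4 of 4 endothelial markers were above 0. So were 4 of 6 fibroblast, 3 of 5 B cell, and 3 of 7 mast cell and basophil markers. Median log2 ratios were 0.27 for thymocyte, 0.69 for endothelial, 0.14 for myeloid and −0.10 for neuroendocrine markers, beside 0.37 for the tuft cell genes. The part of these other cell types in the tuft cell gene levels was not tested.

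No 50-base window of the longest transcript of Trpm5, Il25, Gnat3, Gnb3 or Plcb2 occurs in another gene's transcripts, and the share reached 8.85% in Ltc4s and 7.74% in Alox5ap. Exons of Avil overlap Tsfm on the opposite strand in 165 bases (4.86% of its exon bases), and those of Trpm5 overlap Tssc4 in 220 bases (3.44%). Of the exon bases of Alox5ap, 13.3% overlap Gm19719, which had 0, 0, 1 and 1 reads. Tssc4 had 332, 398, 586 and 639 reads, and Tsfm 338, 333, 284 and 335.

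Outside the list, the profile over the 4 libraries most like the median profile of the 10 genes (Euclidean distance between centred log2 CPM values, among 12777 protein-coding genes with at least 200 reads) was that of Sema4a at a distance of 0.08, followed by Osr1 at 0.09, Metrnl and Sigirr at 0.10 each and Nbeal2 at 0.11. Sema4a had 975, 1187, 468 and 524 reads. Among the 10 genes, Avil lay closest to their median profile, at 0.12, with 9 outside genes closer, and Gnb3 farthest, at 1.36, with 6915 outside genes closer. With 4 libraries many genes share such a profile.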

How the data were processed

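Raw read counts deposited by the authors were used for 4 libraries of RNA from sorted mouse thymic epithelial cells; per the submitters' processing notes, CASAVA, HISAT2 2.0.5, featureCounts 1.5.0-p3 and build mm10 were used. The sources used here do not give the annotation release, the strand setting or the handling of multi-mapping reads. The deposited table also holds a gene length in bases (another, other unit), used here for levels per kilobase.

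Counts were scaled by trimmed mean of M-values (TMM; edgeR 4.0.16, R 4.3.3), with factors from 0.966 to 1.03. Log2 ratios had a prior of 0.5 reads and exact conditional binomial (Clopper-Pearson) 95% intervals, levels exact Poisson intervals; differences of ratios used the counting variance. Since reads are not independent molecules, these intervals and the floor reflect counting error alone. With 1 library per group no p-value was computed. A gene was called with at least 50 reads over the pair, a log2 ratio of 1 or more in size and an interval excluding 0. The ratios were tested on simulated Poisson counts, which follow the counting model of the intervals and hold no variation between animals. That test cannot show how far libraries of the same group would differ. Python 3.11.15 was used for these steps.

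The 10 genes and the lists were chosen with earlier results of these data known. All 10 are named. Of each list, genes called between genotypes are named, otherwise up to 3 with the most reads. Relatives named beside a member come from the family list. Outside this rule are Ptprc and the genes marked as picked or named after their values were seen. Promoter windows are from RefSeq (GRCm38.p6) and transcripts from GENCODE M21, which uses the same build. Symbols with 2 gene identifiers (Ccl21a, Dpep2) were left out and Pou2af2, Pou2af3 and Irag2 were not matched by symbol. Alternatives were 2 other scalings (DESeq2 1.42.0 size factors and total reads), a prior of 2 reads, and minimums of 10, 200 and no reads; levels per transcript length were added after seeing the data.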

Additional observations from a re-analysis of the deposited data

Results flagged for a closer look

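For 6 of the 10 genes the knockout library lay above the control in mTEC and below it in cTEC, 1 library each, and this opposition was not tested. Of the 13953 genes with 50 reads in both pairs, 22.1% had these signs. In cTEC the interval of the genotype ratio held 0 for 5 of the 6, and for Ltc4s, the exception, the mTEC interval held it. The difference of the genotype log2 ratios, mTEC minus cTEC, was 1.30 for Ltc4s, 0.49 for Plcb2, 0.47 for Alox5ap, 0.46 for Avil, 0.23 for Gnb3 and 0.14 for Dclk1. Counting intervals excluded 0 for Ltc4s, Plcb2 and Avil, and held it for Alox5ap (−0.38 to 1.32), Gnb3 (−0.40 to 0.85) and Dclk1 (−0.10 to 0.37).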

How the results depend on the processing

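The medians of the tuft cell genes kept their direction in all 4 comparisons under all 6 alternatives, and moved by less than the counting error of single genes: in mTEC the genotype median lay between 0.37 and 0.38, and in cTEC between −0.05 and −0.08. Il25 in mTEC was called under each alternative except a minimum of 200 reads, which its 72 reads do not reach, and Ltc4s in cTEC was lost with that minimum and with a prior of 2 reads. In mTEC against cTEC, Trpm5 (1.02 and 1.09) in knockouts passed under both other scalings, and Il25 (1.05) in knockouts and Avil (1.04) in controls with total reads. The minimum of 200 reads lost the calls of Gnat3 (100 reads over the control pair, 144 over the knockout pair) and of Ltc4s in knockouts (85 reads). Counts over all genes depended on the minimum of reads. With 10 reads, 404 genes were higher and 366 lower in knockout mTEC, and 370 and 474 in knockout cTEC; with 200 reads, 10 and 9, and 7 and 13; with no minimum, 519 and 473, and 496 and 686. Genes higher in mTEC than cTEC numbered 5145, 1416 and 5785 in controls and 5421, 1508 and 6131 in knockouts at these minimums. With transcript length in place of the deposited length, chosen after seeing the data, the control mTEC level per kilobase was 6.97 for Dclk1 and 5.01 for Trpm5, beside 3.63 and 3.23. No paired analysis was possible because each group has 1 library, and none could be left out. Depth limits Il25, Gnat3, Gnb3, Ltc4s and Alox5ap most, with under 50 reads in every cTEC library.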
